A study of Mus musculus with 12 samples.

Results

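RNA-seq of mouse back skin was used to follow 8 genes of cholesterol synthesis and its control, which were taken from the deposited expression table by their symbols. They are Srebf2, Hmgcs1, Idi1, Fdft1, Sqle, Lss, Dhcr7 and Insig1, and all 8 were among the 18505 genes of the table. All skin came from wild-type (labelled WT) male BALB/c mice and was taken on day 10, with 12 samples in 3 groups of 4. The control group had no imiquimod (its treatment label reads white space handling, and the methods describe petroleum jelly). The IMQ + NS group received imiquimod cream, a Toll-like receptor agonist that gives psoriasis-like lesions, and then saline, and the IMQ + BZLF group received the same cream and then the Banzhilian formula, a mixture of traditional Chinese medicinal materials, plants and a cicada moult, applied to the lesion. In the methods both imiquimod groups also had gauze and a polyurethane film over the lesion, and no cover is described for the controls. Control skin therefore differed from IMQ + NS skin in the vehicle and, as described, in this cover, as well as in imiquimod. The dose of BZLF for these samples is not given in the sources used here.

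Animal cells build cholesterol from acetyl-CoA through mevalonate, squalene and lanosterol. Srebf2 encodes SREBP2, the transcription factor that turns on the genes of this route when membrane sterol is low, and Insig1 encodes the endoplasmic reticulum protein that holds SREBP and its escort Scap back when sterol is plentiful. In skin the route supplies the cholesterol of the lipid layers between the cells of the stratum corneum and part of the sebum lipids.

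Promoter sequence is shown for the transcription factor, an early enzyme and the inhibitor, since SREBP2 acts on the promoters of its targets, its own gene among them. RefSeq promoters (GRCm38.p6) covering 250 bases before to 50 bases after each start were matched for 6 of the 8 genes, and Sqle and Fdft1 were not matched. The lines below are on the plus strand and end before the annotated transcript. Those of Srebf2 (162 bases) and Insig1 (201 bases) stop at the GENCODE start, which lies upstream of the RefSeq start. Distances given below run to the RefSeq start and not to the end of the line. Srebf2 lies at chr15:82147019-82147180, Hmgcs1 at chr13:119690101-119690350 and Insig1 at chr5:28071162-28071362. Capitals mark the sterol regulatory element letters TCACNCCA in Srebf2 and Hmgcs1 and the E-box letters CACGTG in Insig1.
Srebf2: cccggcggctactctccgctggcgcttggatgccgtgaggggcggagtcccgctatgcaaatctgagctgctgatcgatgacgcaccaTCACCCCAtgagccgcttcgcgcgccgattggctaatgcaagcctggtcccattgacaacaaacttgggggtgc
Hmgcs1: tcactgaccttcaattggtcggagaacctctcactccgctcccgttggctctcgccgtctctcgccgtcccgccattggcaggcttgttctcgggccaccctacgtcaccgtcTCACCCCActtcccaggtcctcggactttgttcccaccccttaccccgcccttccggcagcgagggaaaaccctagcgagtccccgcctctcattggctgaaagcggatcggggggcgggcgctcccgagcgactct
Insig1: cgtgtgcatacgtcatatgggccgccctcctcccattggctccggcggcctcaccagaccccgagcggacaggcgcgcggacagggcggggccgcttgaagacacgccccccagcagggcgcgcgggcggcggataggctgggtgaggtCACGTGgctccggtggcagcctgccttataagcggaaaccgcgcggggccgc
The TCACNCCA match began 162 bases before the RefSeq start of Srebf2 and 137 bases before that of Hmgcs1. These letters, searched on both strands, were present in 4.36% of 32851 promoters of the same length, and no match lay in the windows of Insig1, Idi1, Lss or Dhcr7. The Insig1 E-box began 101 bases before its RefSeq start. Of the 3 start sites matched for Dhcr7, start site 2 also held CACGTG, 164 bases before it, and these letters were found in 7.15% of promoters. The CCAAT-box letters ATTGG, present in 37.4% of promoters, occurred 4 times in the Hmgcs1 window, 2 times in that of Idi1, 2 times in that of Dhcr7 start site 3 and 1 time in each of those of Srebf2, Lss and Insig1. The windows of Dhcr7 start sites 1 and 2 held none. A match is a description of the letters and no measure of binding.

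The genes lie apart in the genome. In GENCODE on GRCm38, Srebf2 spans chr15:82147181-82205379 and Sqle chr15:59315077-59331192. Hmgcs1 spans chr13:119690379-119708260 and Idi1 chr13:8885501-8892451. Fdft1 spans chr14:63145150-63179578 on the minus strand, Lss chr10:76531588-76557138, Dhcr7 chr7:143823145-143848410 and Insig1 chr5:28071363-28078662, and all but Fdft1 are on the plus strand.

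Levels are given as FPKM, fragments counted per length of transcript and per sequencing depth, as deposited. The FPKM of a sample summed to between 444660 and 506622, and 16649 to 16941 genes were above 0. Skin identity was checked with marker lists, in which Krt5, a keratin of the basal epidermis, measured 539 to 728 FPKM in the controls and 836 or more in every treated sample. The keratinocyte markers summed to 2916 to 4081 FPKM in control skin, 6313 to 9229 in saline-treated lesions and 3719 to 5164 in formula-treated lesions. One control library stood apart. In control replicate 2 the 15 hair shaft and inner root sheath genes summed to 2237 FPKM, against 32.1 to 88.1 in the other 3 controls and 14134 or more in every imiquimod-treated sample. Its 10 proliferation genes summed to 232 FPKM, against 26.8 to 41.8 in the other controls and 147 to 208 in the treated samples. Log2 fold changes of the called members, and of the genes in which this control lay far from the others, are therefore also given without it. In bulk skin, fewer cells of a type and less RNA per cell cannot be told apart.

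Within each group Hmgcs1, the synthase that makes HMG-CoA, had the highest mean level per transcript length of the 8 genes. It averaged 62.0 ± 10.5 FPKM (SD, n = 4) in the controls, 87.4 ± 3.83 in saline-treated lesions and 74.7 ± 8.41 in formula-treated lesions. In control and IMQ + BZLF skin its samples overlapped those of Insig1, the second in order, and in IMQ + NS skin they did not overlap those of Sqle, the second there. Sqle and Srebf2 followed Insig1 in control and IMQ + BZLF skin and overlapped each other. Fdft1 was lowest in all 3 groups, at 10.6, 12.6 and 9.33 FPKM in control, IMQ + NS and IMQ + BZLF skin, and it overlapped Lss in both imiquimod-treated groups.

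**Figure D1:**
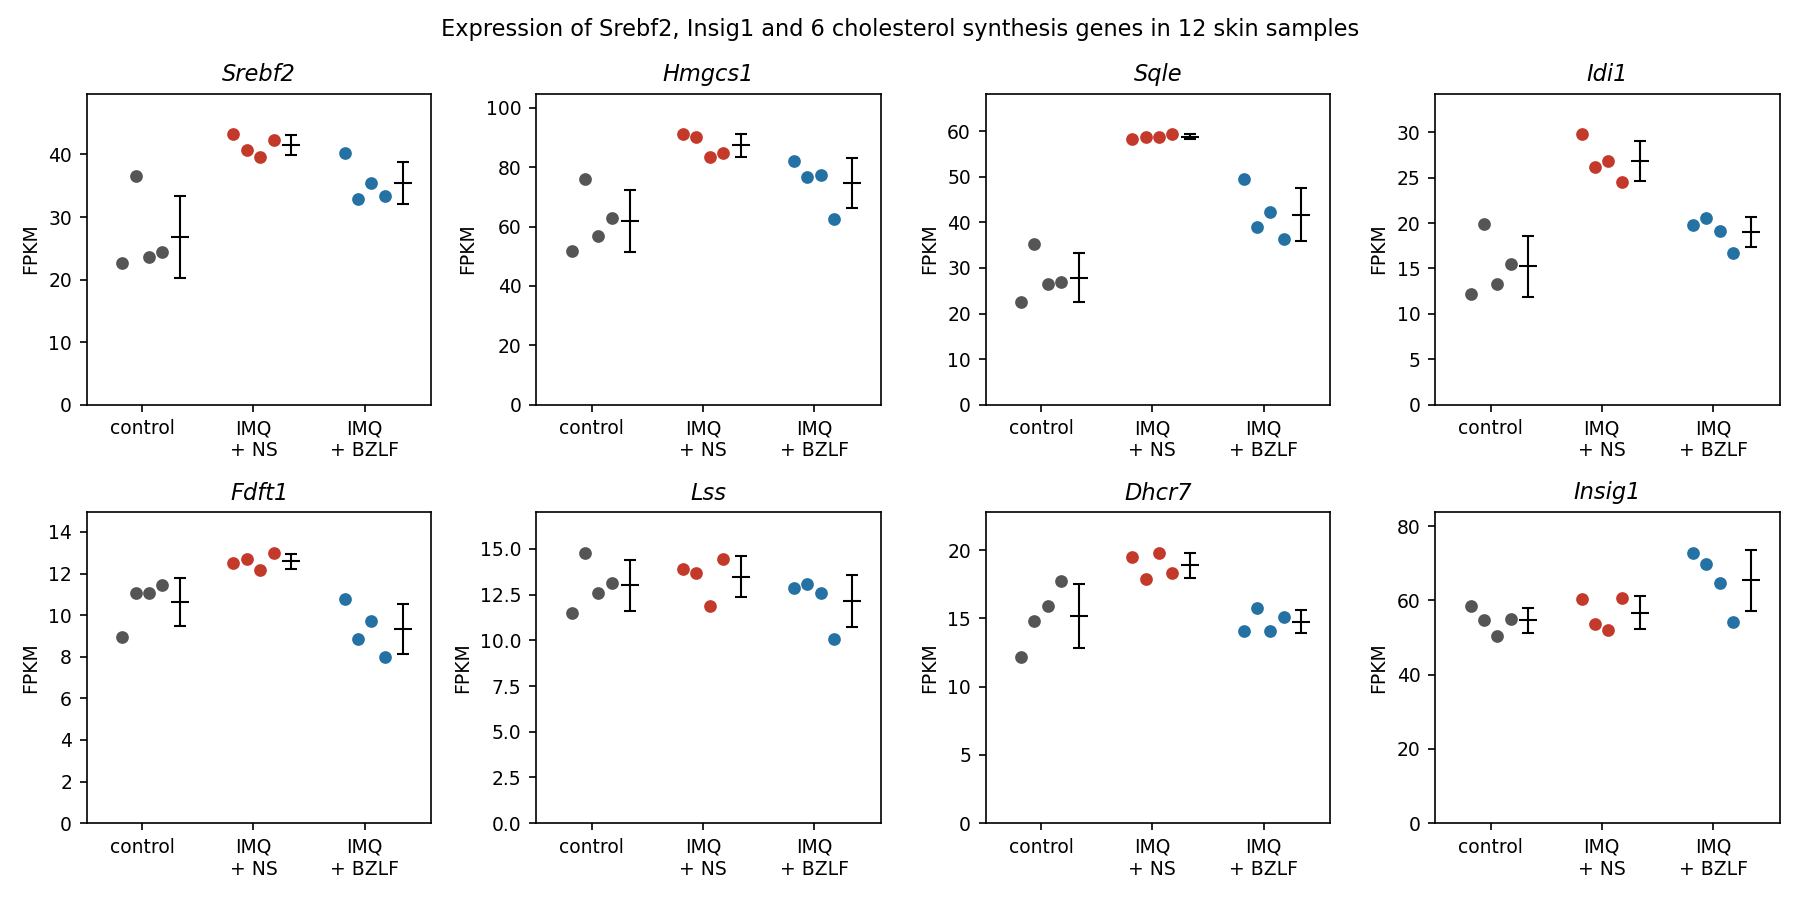
FPKM of the 8 genes in each of the 12 samples, with 1 panel a gene, points for samples and bars for the mean and SD of each group of 4. The 4 IMQ + NS samples lie above all 4 controls for Srebf2, Hmgcs1, Sqle, Idi1, Fdft1 and Dhcr7, and not for Lss or Insig1.

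The comparison of IMQ + NS with control skin asks how the genes stood in the psoriasis-like lesion. In all, 6 of the 8 were higher in the lesion, led by Sqle at 2.11 times the control mean and followed by Idi1 at 1.76 times, Srebf2 at 1.55 times and Hmgcs1 at 1.41 times. Lss and Insig1 did not pass the test. By limma on log2(FPKM + 0.1) with Benjamini-Hochberg adjustment over 15288 genes, 6 members passed an adjusted p of 0.05 upward and 0 downward, where 29.0% of all genes tested passed upward and 27.1% downward. With a log2 fold change over 1 also required, 1 member passed upward and 0 downward, against 11.4% and 11.0% of all genes. The median log2 fold change was 0.42 over the 8 members and 0.05 over all genes.

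Srebf2, the transcription factor, measured 22.7, 36.5, 23.6 and 24.4 FPKM in control replicates 1 to 4 and 43.3, 40.6, 39.6 and 42.4 FPKM in the IMQ + NS samples. Every lesion sample was above every control, and control replicate 2 was the highest control. Its log2 fold change was 0.66 (SE 0.14, adjusted p = 0.0049), and 0.81 without control replicate 2.

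Among the enzymes, Sqle, the squalene epoxidase that catalyses a rate-limiting step after squalene, had the highest rise. It measured 22.5, 35.3, 26.6 and 27.0 FPKM in the controls and 58.3, 58.9, 58.8 and 59.4 FPKM in IMQ + NS skin. The lesion samples were close to each other and all above the controls. The log2 fold change was 1.10 (SE 0.12, adjusted p = 0.000149), and 1.22 without control replicate 2. Idi1, which isomerises isopentenyl diphosphate, measured 12.2, 19.9, 13.3 and 15.4 FPKM in the controls and 29.8, 26.1, 26.8 and 24.5 FPKM in the lesions. The groups did not overlap, and the log2 fold change was 0.83 (SE 0.15, adjusted p = 0.00156), and 0.97 without control replicate 2. Hmgcs1 measured 51.9, 76.2, 56.9 and 62.9 FPKM in the controls and 91.2, 90.1, 83.3 and 84.9 FPKM in the lesions. Again no samples overlapped, and the log2 fold change was 0.51 (SE 0.11, adjusted p = 0.00528), and 0.61 without control replicate 2.

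The calls for Fdft1 and Dhcr7 were less stable. Fdft1, the squalene synthase, measured 8.95, 11.1, 11.1 and 11.4 FPKM in the controls and 12.5, 12.7, 12.2 and 13.0 FPKM in IMQ + NS skin. Its log2 fold change of 0.25 (SE 0.09, adjusted p = 0.0497) lost the call under 14 of 19 other settings of scaling, filter, model or left-out sample, among them leaving out any one of control replicates 1, 3 and 4 or any one IMQ + NS sample. Dhcr7, which catalyses the last step to cholesterol, measured 12.2, 14.8, 15.9 and 17.8 FPKM in the controls and 19.5, 17.9, 19.8 and 18.4 FPKM in the lesions. The lowest lesion and the highest control were nearly equal, and the log2 fold change of 0.33 (SE 0.12, adjusted p = 0.0391) lost the call under 11 of 19 settings, including each IMQ + NS sample left out and control replicates 1 and 3. Without control replicate 2 the values were 0.27 for Fdft1 (adjusted p = 0.0288, limma) and 0.32 for Dhcr7 (adjusted p = 0.0461). Across the settings that of Fdft1 ran from 0.0723 to 0.29 and that of Dhcr7 from 0.18 to 0.41, the lowest under quantile normalization.

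Lss, the lanosterol synthase, and Insig1 did not pass the test. Lss measured 11.5, 14.8, 12.6 and 13.2 FPKM in the controls and 13.9, 13.7, 11.9 and 14.5 FPKM in the lesions, and the interval of its log2 fold change ran from -0.18 to 0.29. Insig1 measured 58.4, 54.6, 50.4 and 55.1 FPKM in the controls and 60.5, 53.7, 52.1 and 60.6 FPKM in the lesions, with an interval from -0.13 to 0.23. Both sets of samples overlapped, and adjusted p was 0.672 for Lss and 0.591 for Insig1 by limma. When samples were rescaled to equal sums the log2 fold changes were -0.08 for each gene.

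Members that moved did so beside other changes in the tissue. In IMQ + NS against control, 29.0% of all genes passed upward and 27.1% downward. Keratinocyte markers passed upward for 8 of 10 genes and downward for 1, and proliferation markers upward for 9 of 10 and downward for 0. The 7 hyperproliferative keratinocyte genes summed to 190 to 616 FPKM in control and 2546 to 4654 FPKM in IMQ + NS skin, and 7 of 7 passed upward. Of the sebaceous gland markers 1 of 10 passed upward and 7 downward, and the list summed to 436 to 651 FPKM in control and 147 to 392 in IMQ + NS skin. Of the adipocyte markers 0 of 10 passed upward and 9 downward. All 15 hair markers passed upward. Stfa1 of the hyperproliferative and Mogat2 of the sebaceous list were each at 0 in at least 1 sample of the series. The part of these shifts in the change of the 8 genes was not tested.

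**Figure D2:**
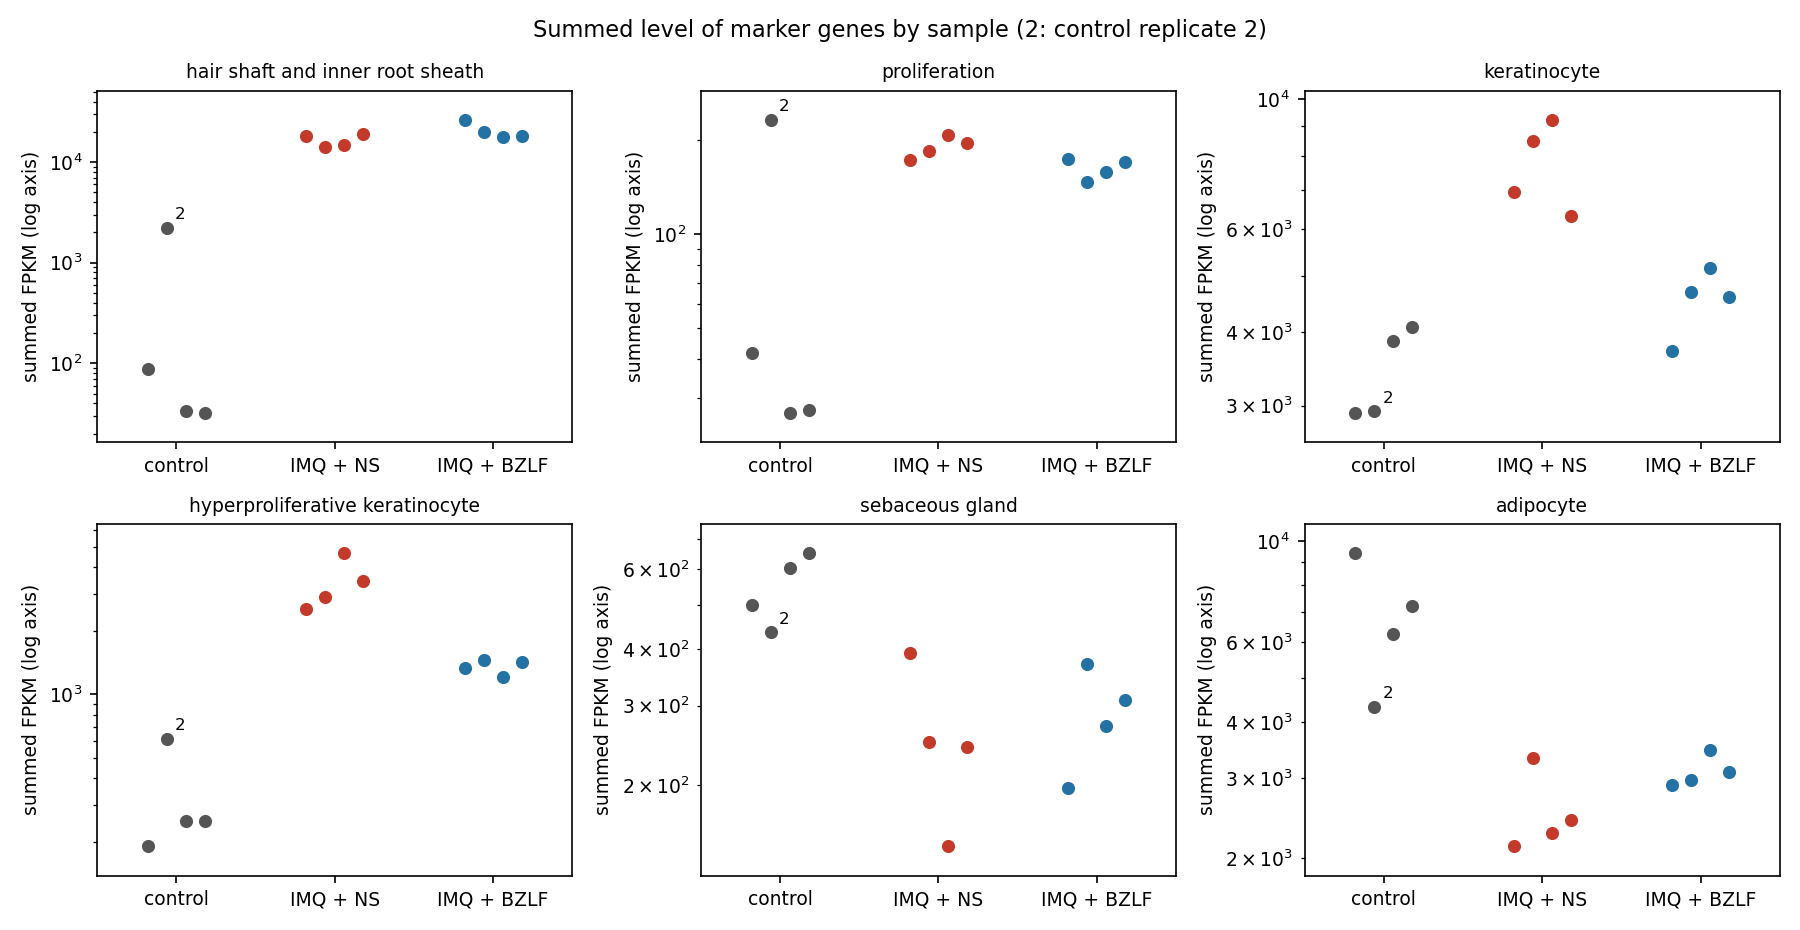
Summed FPKM of 6 marker lists in each of the 12 samples, on log axes, with 1 point a sample and control replicate 2 marked 2. Hair markers in this control reach 2237 FPKM, between the other controls and the treated samples, and the keratinocyte markers are highest in the IMQ + NS samples at 6313 to 9229 FPKM.

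Setting IMQ + BZLF beside IMQ + NS skin asks how the genes stood after the formula was applied to the lesion. Sqle, Idi1, Fdft1 and Dhcr7 were lower in the formula group, at 0.709, 0.710, 0.741 and 0.782 times the IMQ + NS mean. Srebf2, Hmgcs1, Lss and Insig1 did not pass the test. By limma with Benjamini-Hochberg adjustment 4 members passed downward and 0 upward, where 5.17% of all genes passed downward and 1.28% upward. With a log2 fold change over 1 also required, 0 members passed in either direction, against 2.20% downward and 0.321% upward of all genes. The median log2 fold change was -0.29 over the members and -0.02 over all genes. These groups share the IMQ + NS samples with the comparison above, so the direction of the 2 comparisons is not independent.

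Sqle measured 49.5, 38.9, 42.2 and 36.3 FPKM in IMQ + BZLF skin, below all 4 IMQ + NS samples at 58.3 to 59.4 FPKM. Its log2 fold change was -0.50 (SE 0.09, adjusted p = 0.0124), and it held under all 19 other settings. Idi1 measured 19.7, 20.5, 19.1 and 16.7 FPKM, with the lowest IMQ + NS sample at 24.5. Its log2 fold change was -0.49 (SE 0.08, adjusted p = 0.0104). Dhcr7 measured 14.1, 15.8, 14.1 and 15.1 FPKM against 17.9 to 19.8 in IMQ + NS skin, and its log2 fold change was -0.35 (SE 0.06, adjusted p = 0.0117). The samples of these 3 genes did not overlap, and the calls for Idi1 and Dhcr7 were lost only when all 12 samples entered one fit, at adjusted p = 0.0617 and 0.082. Fdft1 measured 10.8, 8.87, 9.72 and 7.99 FPKM against 12.2 to 13.0, with a log2 fold change of -0.44 (SE 0.09, adjusted p = 0.0223). With median ratio scaling, without IMQ + BZLF replicate 2, or without any one of IMQ + NS replicates 2, 3 and 4, the call for Fdft1 was lost, at adjusted p up to 0.0717.

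Srebf2 measured 40.2, 32.9, 35.4 and 33.3 FPKM in IMQ + BZLF skin. Replicate 1 overlapped the IMQ + NS samples at 39.6 to 43.3 FPKM and the other 3 lay below them. The log2 fold change was -0.23 (SE 0.07, adjusted p = 0.0916), and without IMQ + BZLF replicate 1 it passed at adjusted p = 0.017. Hmgcs1 measured 82.2, 76.6, 77.4 and 62.6 FPKM, all below the IMQ + NS samples, with an adjusted p of 0.141 and an interval of the log2 difference from -0.42 to -0.04. Lss measured 12.9, 13.1, 12.6 and 10.1 FPKM, and its interval ran from -0.37 to 0.07.

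Insig1, the inhibitor, was the 1 member with a higher mean in IMQ + BZLF than in IMQ + NS skin, though the difference did not pass the test. It measured 72.9, 69.8, 64.7 and 54.1 FPKM, and replicate 4 lay within the IMQ + NS range of 52.1 to 60.6 FPKM. The log2 difference was 0.20 (adjusted p = 0.263), with an interval from -0.02 to 0.42. As a description, Insig1 to Sqle FPKM ratios were 1.55 to 2.59 in controls, 0.886 to 1.04 with saline and 1.47 to 1.80 with BZLF. Sqle passed in all 3 comparisons and Insig1 in none. Ratios of Insig1 to Srebf2 FPKM were 1.5 to 2.58 in controls, 1.31 to 1.43 with saline and 1.62 to 2.12 with BZLF.

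Hyperproliferative keratinocyte markers passed downward for 6 of 7 genes in this comparison, with sums of 1203 to 1458 FPKM in IMQ + BZLF skin, and keratinocyte markers for 3 of 10. Proliferation markers passed downward for 1 of 10. The shares of all genes were 5.17% downward and 1.28% upward. No hair, sebaceous gland or adipocyte marker passed (0 of 15, 0 of 10 and 0 of 10). The part of the keratinocyte markers in the change of the 4 genes was not tested.

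The comparison of IMQ + BZLF with control skin asks how far the treated lesion stood from skin without imiquimod. Sqle and Srebf2 were higher in IMQ + BZLF skin, at 1.5 and 1.32 times the control mean. By limma with Benjamini-Hochberg adjustment 2 members passed upward and 0 downward, against 23.8% and 29.2% of all genes, and 0 passed with a log2 fold change over 1, against 9.65% upward and 10.1% downward of all genes. The log2 fold change of Sqle was 0.59 (SE 0.15, adjusted p = 0.00982), or 0.71 without control replicate 2, and held under all 19 other settings. That of Srebf2 was 0.43 (SE 0.15, adjusted p = 0.0437), its samples overlapped the controls through control replicate 2 at 36.5 FPKM, and the call was lost under 11 of 19 settings, including each sample left out other than control replicate 2. Without that control it was 0.58 (adjusted p = 0.000363), and Hmgcs1 at 0.38 (adjusted p = 0.0129) and Idi1 at 0.48 (adjusted p = 0.00363) also passed, which made 4 members higher. Of all genes, 35.1% passed upward and 31.0% downward without it. Insig1 gave 0.25 (adjusted p = 0.0665, interval from 0.02 to 0.49), and passed without IMQ + BZLF replicate 4 and when all 12 samples entered one fit, at adjusted p down to 0.0145. Dhcr7, Fdft1 and Lss gave -0.02, -0.19 and -0.10, with adjusted p of 0.876, 0.219 and 0.499.

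**Figure D3:**
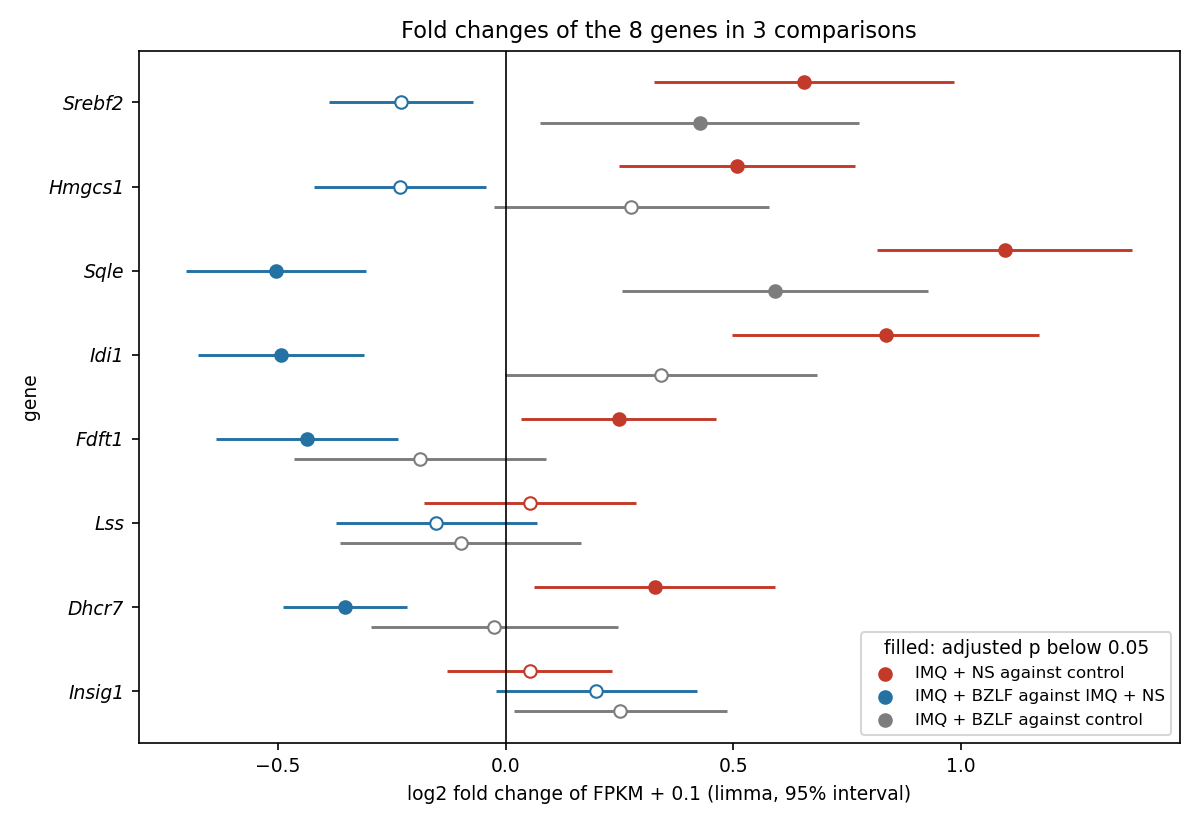
Log2 fold changes of the 8 genes with 95% intervals in the 3 comparisons, by limma on log2(FPKM + 0.1), with filled points at an adjusted p below 0.05. The filled points number 6 for IMQ + NS against control, 4 for IMQ + BZLF against IMQ + NS and 2 for IMQ + BZLF against control.

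An exact two-sided permutation test of each member alone gave the smallest p that 4 against 4 samples allow, 0.0286, for 6 members in IMQ + NS against control, 5 in IMQ + BZLF against IMQ + NS and 1 in IMQ + BZLF against control. These are the members whose groups did not overlap. In IMQ + NS against control 6 lay higher and 0 lower in this way, where the groups of 23.7% of all genes tested did not overlap and lay higher and those of 25.7% lower. With IMQ + BZLF against IMQ + NS 0 lay higher and 5 lower, beside 4.24% and 10.9% of all genes, and in IMQ + BZLF against control 1 higher and 0 lower, against 19.4% and 28.1%. Adjusted over the 24 exact tests the p of those 12 was 0.0572.

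The other genes of the route were read from 6 lists, of which 46 genes are reported here, all of them tested. The 20 enzymes of cholesterol synthesis counted here take in the member enzymes and Ggps1, an enzyme of a branch of the route. Of these, 11 were higher and 1 lower in IMQ + NS than in control skin (median log2 fold change 0.23). Of all genes, 29.0% were higher and 27.1% lower in that comparison. With BZLF against IMQ + NS skin 0 enzymes were higher and 11 lower, with a median of -0.35, against 1.28% and 5.17% of all genes. Against control skin, IMQ + BZLF had 3 enzymes higher, Ggps1 among them, and 6 lower, with a median of -0.06. The shares of all genes were 23.8% and 29.2%. The share of enzymes higher was thus below that of all genes, and the share lower was near it. The members were chosen with these results known, so these counts are not independent evidence.

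Of 6 other genes of the mevalonate and squalene steps, 3 were higher and 0 lower in IMQ + NS than in control skin. The shares of all genes there were 29.0% and 27.1%. Fdps, the farnesyl diphosphate synthase, rose by 0.55 on the log2 scale (adjusted p = 0.0023), Mvk, the mevalonate kinase, by 0.51 (adjusted p = 0.00113) and Mvd, the mevalonate decarboxylase, by 0.21 (adjusted p = 0.0214). With BZLF 4 were lower and 0 higher than in IMQ + NS skin, against 5.17% and 1.28% of all genes. Fdps went from 118 ± 8.10 FPKM in IMQ + NS to 79.7 ± 9.71 in IMQ + BZLF skin (log2 fold change -0.57, adjusted p = 0.00966), and Mvd, Mvk and Pmvk, the phosphomevalonate kinase, had log2 fold changes of -0.51, -0.40 and -0.34. Ggps1, which makes the geranylgeranyl chain for other products, passed only in IMQ + BZLF against control skin, at 0.35 (adjusted p = 0.0399).

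Of 8 other genes of the steps from lanosterol to cholesterol, 3 (37.5%) were higher and 1 (12.5%) lower in the lesion. The shares of all genes were 29.0% and 27.1%. Lbr, a sterol reductase that is also a nuclear envelope protein, Sc5d, the sterol C5-desaturase, and Nsdhl, a dehydrogenase of the C4-demethylation steps, had log2 fold changes of 1.01, 0.50 and 0.34, and Msmo1, the C4-methyl oxidase, had -0.41 (adjusted p = 0.0168). Lbr measured 29.0 FPKM in control replicate 2 and 10.6 to 11.6 in the other controls, and its log2 fold change was 1.36 without that replicate. With BZLF 3 were lower and 0 higher than in IMQ + NS skin, against 5.17% and 1.28% of all genes. Cyp51, the lanosterol demethylase, went from 34.5 ± 1.45 to 25.7 ± 2.14 FPKM (log2 fold change -0.43, adjusted p = 0.00957), Ebp, the sterol isomerase, had -0.39 (adjusted p = 0.00994) and Tm7sf2, a sterol reductase, had -0.36 (adjusted p = 0.0456). Tm7sf2 lost its call under 14 of 19 other settings.

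**Figure D4:**
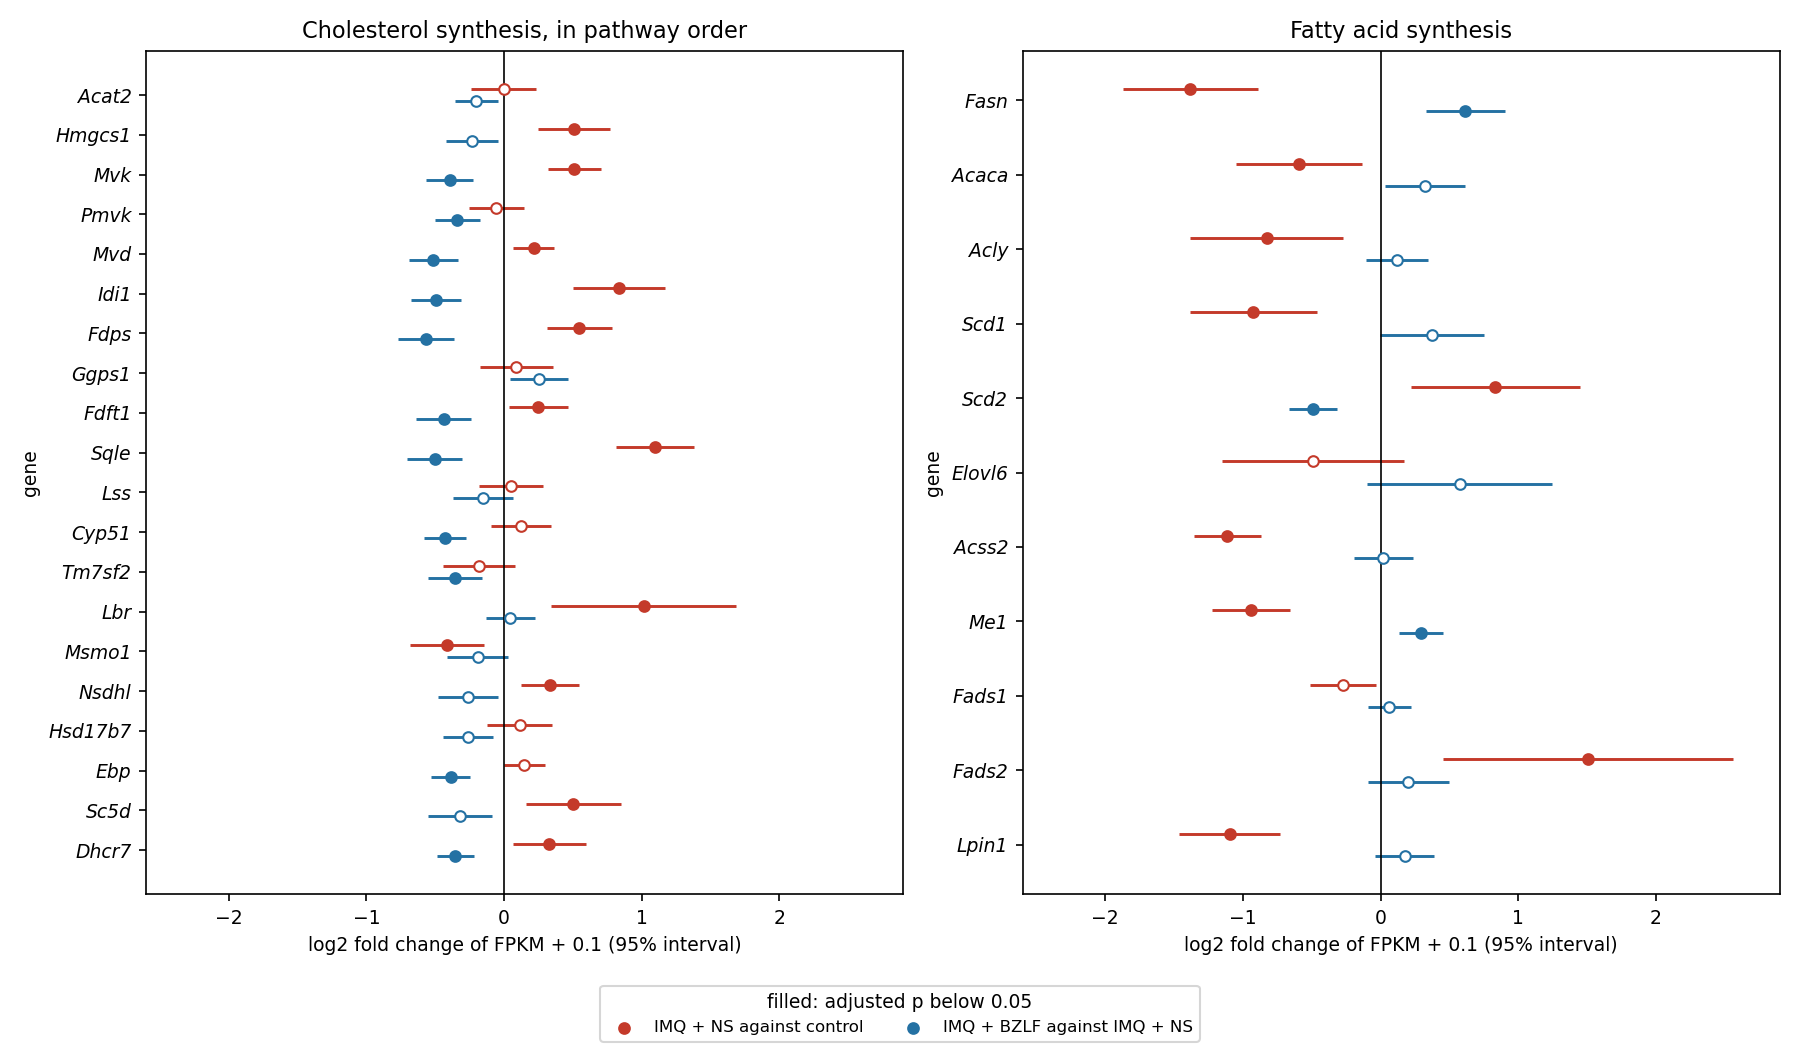
Log2 fold changes with 95% intervals for 20 cholesterol synthesis enzymes in pathway order and for 11 fatty acid synthesis genes, for IMQ + NS against control and IMQ + BZLF against IMQ + NS. Filled points passed an adjusted p of 0.05, and the 20 enzymes include Ggps1, of a branch of the route. Of the cholesterol enzymes 11 pass upward in the first comparison and 11 pass downward in the second.

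Of the 5 genes that control SREBP processing, Scap, the escort, was higher in the lesion (19.1 ± 1.75 to 24.3 ± 0.490 FPKM, SD, n = 4; log2 fold change 0.36, adjusted p = 0.0062) and lower with BZLF (19.6 ± 0.896 FPKM; -0.31, adjusted p = 0.00957). Srebf1, which encodes the relative that drives fatty acid synthesis, was lower in the lesion, from 42.6 ± 9.56 to 30.3 ± 1.64 FPKM (-0.47, adjusted p = 0.023). The ratio of Srebf2 to Srebf1 FPKM, a description with no test, was 0.410 to 0.819 in the controls, 1.3 to 1.49 with saline and 1.16 to 1.55 with BZLF. Mbtps2, a protease that releases SREBP, passed only in IMQ + BZLF against control skin, at 0.32 (adjusted p = 0.037).

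Of the 11 fatty acid synthesis genes 2 were higher and 7 lower in IMQ + NS than in control skin. The median log2 fold change was -0.83, and 29.0% of all genes were higher and 27.1% lower. By the rule fixed for named genes, Acss2, the acetyl-CoA synthetase, Lpin1, a phosphatidate phosphatase, and Me1, the malic enzyme that supplies NADPH, had -1.11, -1.10 and -0.94. Genes named after their values were seen are Fasn, Scd1, Acly and Acaca, at -1.38, -0.92, -0.83 and -0.59, and the desaturases Fads2 and Scd2, the 2 that were higher, at 1.51 and 0.83, or 2.04 and 1.12 without control replicate 2. With BZLF, Fasn (0.61, adjusted p = 0.0238) and Me1 (0.29, adjusted p = 0.0416) were higher than in IMQ + NS skin and Scd2 was lower (-0.49, adjusted p = 0.00904). In that comparison 1.28% of all genes were higher and 5.17% lower. Me1 lost its call under 11 of 19 other settings and Fasn under 4. Those of Fasn included leaving out IMQ + BZLF replicate 2 or IMQ + NS replicate 3. Scd2 lost its call when all 12 samples entered one fit, at adjusted p = 0.351.

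Sterol uptake and transport had 3 of 7 genes higher and 2 lower in the lesion, against 29.0% and 27.1% of all genes. Npc1, which exports cholesterol from lysosomes, rose from 7.39 ± 0.794 to 15.6 ± 0.870 FPKM (log2 fold change 1.07, adjusted p = 4.71e-05), while its partner Npc2 had -1.19 and Vldlr, a lipoprotein receptor, -1.40. Named after their values were seen, the other genes that were higher are Lrp8 at 1.97 and Stard4 at 0.88. Lrp8, at 0.0394 to 0.457 FPKM in the controls, was close to the 0.1 added before the logarithm, and its log2 fold change was 2.76 with 0.01 added, 0.62 with 1 added and 2.41 without control replicate 2. With BZLF 0 of the 7 passed against IMQ + NS skin in either direction.

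Of the 9 genes of LXR, efflux and esterification, 2 were higher and 3 lower in the lesion, against 29.0% and 27.1% of all genes. Abcg1, a sterol exporter and LXR target, rose from 3.40 ± 0.375 to 8.53 ± 0.840 FPKM (log2 fold change 1.3, adjusted p = 4.41e-05) and was lower with BZLF at 5.92 ± 0.552 FPKM (-0.52, adjusted p = 0.0147). Nr1h3, which encodes LXR alpha, had -1.28 and Cyp27a1, the sterol 27-hydroxylase, -1.51 in the lesion. Soat1, which esterifies cholesterol, at 0.51 and Lpcat3, a phospholipid acyltransferase, at -0.28 were named after their values were seen.

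Over these 46 genes, 14 were higher and 14 lower in IMQ + NS against control, where 29.0% of all genes passed upward and 27.1% downward, so that 30.4% of the list in each direction was near the share of all genes. With IMQ + BZLF set against IMQ + NS, 2 were higher and 10 lower (4.35% and 21.7% of the list, against 1.28% and 5.17% of all genes), and in IMQ + BZLF against control 9 and 17 (19.6% and 37.0%, against 23.8% and 29.2%). Rescaling samples to equal sums moved the median of all genes in IMQ + NS against control from 0.05 to -0.07 on the log2 scale, and the counts there became 8 and 18, with 20.7% of all genes higher and 32.7% lower. Those that were no longer higher were Mvd, Nsdhl, Sc5d, Scap, Soat1 and Scd2. The counts with equal sums were 2 and 9 in IMQ + BZLF against IMQ + NS (1.33% and 4.15% of all genes) and 7 and 21 in IMQ + BZLF against control (18.1% and 33.9%).

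Single samples decided some of these pathway calls, with the highest adjusted p (limma) after leaving out 1 sample given for each gene. In IMQ + NS against control, 9 of the 28 calls were lost in this way. Lbr was lost without control replicates 1, 3 or 4 (0.054), Mvd without control replicates 1 or 3 or IMQ + NS replicate 3 (0.0618), Sc5d without control replicates 3 or 4 or IMQ + NS replicate 3 (0.0566) and Srebf1 without IMQ + NS replicates 1 or 3 (0.0575). Soat1 was lost without 3 of the 8 samples in turn (control replicate 1, IMQ + NS replicates 1 and 4, 0.0524), Lpcat3 without 4 (control replicates 3 and 4, IMQ + NS replicates 2 and 3, 0.0655), and Acaca without 5 (control replicates 1 and 2, IMQ + NS replicates 1 to 3, 0.081). Scd2 was lost without any sample other than control replicate 2 (0.0749), and Fads2 without control replicates 1, 3 or 4 or IMQ + NS replicates 1 or 4 (0.0616).

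Of the 12 calls in IMQ + BZLF against IMQ + NS, 5 were lost. Mvk was lost without IMQ + NS replicates 3 or 4 (0.0538), Pmvk without IMQ + BZLF replicates 2 or 4 or IMQ + NS replicates 1, 2 or 4 (0.0805), and Fasn as given above (0.0713). Tm7sf2 was lost without any sample other than IMQ + NS replicate 4 (0.133) and Me1 without any other than IMQ + NS replicate 3 (0.0939). Of the 26 calls in IMQ + BZLF against control, 8 were lost. Among these, Lbr was lost without control replicate 1 (0.0509), Mbtps2 without any sample other than control replicate 2 (0.0944) and Ggps1 without control replicates 3 or 4 or IMQ + BZLF replicates 2, 3 or 4 (0.108).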

How the data were processed

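Skin RNA was sequenced by the authors from 12 samples, 4 a group. The authors' methods describe alignment to transcripts with Bowtie2 and quantification with eXpress, whereas the submitters' processing notes name fastp, HISAT2, HTSeq, R 3.2.0 and the mm10 build. Which of these made the values could not be settled. The deposited file gives FPKM per gene and sample, normalized by the authors for length and depth and not log transformed, with no counts, so the depth of a value is unknown and its precision rests on the 4 replicates. The labels do not say whether the samples came from separate animals, so p-values measure the spread between these samples.

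From this table, genes averaging 0.1 FPKM or more across all 12 samples (15288 of 18505) were tested in each pair of groups on log2(FPKM + 0.1), which understates the change of low genes, with limma 3.58.1 in R 4.3.3 (moderated variances with a trend) and Benjamini-Hochberg adjustment over all genes tested, at 0.05. The code was tested on simulated data. Exact permutation tests and motif searches used Python 3.11.15, pandas 2.3.3 and scipy 1.17.1, and plots matplotlib 3.10.9. The study tested counts, and the FPKM called for limma in its place. Columns belonging to no sample numbered 0.

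Members, pathway lists, marker lists and tests were chosen with earlier results of these data known. Some genes of the pathway lists are not reported here, and every list count leaves them out. Named were the 8 members, every gene of the mevalonate, lanosterol and SREBP control lists with an adjusted p below 0.05 in any comparison, and from the other 3 pathway lists the 3 with the smallest p. A further 10 genes of those lists were named after their values were seen. The 5 genes most like the members were ranked by Pearson r among genes averaging 1 FPKM or more. Alternatives were other added constants (0.01 and 1), no filter or a mean FPKM of 1, median ratio, equal-sum and quantile scaling, 1 fit of all 12 samples, no trend, robust moderation, a replicate block and each sample left out. Marker lists covered keratinocytes, hyperproliferative keratinocytes, sebaceous gland, adipocytes, hair, proliferation, fibroblasts, skeletal muscle, neutrophils, macrophages, T cells and endothelium.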

Additional observations from a re-analysis of the deposited data

Results flagged for a closer look

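In 10 of 126 groups of 4 values, over the 42 genes named, the highest or lowest sample lay far from the other 3 by Dixon's criterion, which chance alone meets in about 1 in 20 groups. Control replicate 2 was the sample in 4 of them. It had 36.5 FPKM of Srebf2 against 22.7 to 24.4 in the other controls, 29.0 of Lbr against 10.6 to 11.6, 34 of Fads2 against 6.67 to 9.76 and 0.457 of Lrp8 against 0.0394 to 0.0879. This library also had the high hair and proliferation markers given above, and their part in these values was not tested.

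Control replicate 1 had 8.95 FPKM of Fdft1 against 11.1 to 11.4 in the other controls. IMQ + NS replicate 3 had 28.1 FPKM of Mvd against 26.3 to 26.6. In IMQ + BZLF skin, replicate 4 had 10.1 FPKM of Lss against 12.6 to 13.1, 69.5 of Me1 against 59.9 to 61.6 and 163.5 of Fasn against 126.7 to 130.9. Replicate 3 had 12.5 FPKM of Pmvk against 11.1 in each of the others.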

How the results depend on the processing

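Without control replicate 2 the IMQ + NS log2 fold changes of Srebf2, Hmgcs1, Sqle and Idi1 were 0.81, 0.61, 1.22 and 0.97, and these 4 calls held under all 19 alternatives. Requiring a log2 fold change over 1 as well left 1 member and 5 pathway genes higher and 7 pathway genes lower in IMQ + NS against control. It left 0 members and 0 pathway genes in either direction in IMQ + BZLF against IMQ + NS. In IMQ + BZLF against control it left 0 members, 4 higher and 5 lower pathway genes. The shares of all genes higher and lower were 11.4% and 11.0%, 0.321% and 2.20%, and 9.65% and 10.1%, in the same order. In IMQ + NS against control 8 pathway genes were higher with equal sums, and 9 (without control replicates 1 or 3) to 16 (without control replicate 2) with a sample left out. The shares of all genes higher were 20.7% with equal sums and 23.2%, 23% and 39.5% without control replicates 1, 3 and 2. In IMQ + BZLF against IMQ + NS the 2 higher pathway genes became 0 with no filter and with all 12 samples in one fit, 1 without the variance trend, and 0 to 2 with a sample left out. The fit of all 12 samples left 2 members lower, where 3.94% of all genes were lower. Higher were 0.643% of all genes with no filter, 0.621% in the fit of all 12 and 0.909% without the trend. With a sample left out the share ran from 0.386% to 2.2%. In IMQ + BZLF against control the 2 higher members became 1 with no filter, equal sums, no trend or the block, 4 in the fit of all 12, and 1 to 4 with a sample left out (4 without control replicate 2). Of all genes, 19.1% were higher with no filter, 23.3% with no trend, 27.9% in the fit of all 12 and 18.2% to 35.1% with a sample left out. Causes were not tested.

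Correlations of same-numbered deviations ran from -0.152 to 0.26, and those of different numbers from -0.236 to 0.268. The same-numbered values were -0.0852 to 0.0943 for replicate 1 and -0.152 to -0.0254 for replicate 2. They were 0.174 to 0.184 for replicate 3 and 0.111 to 0.26 for replicate 4. Whether the replicate numbers pair the samples was not tested. With the replicate block, 4 members were higher in IMQ + NS against control, 4 lower in IMQ + BZLF against IMQ + NS and 1 higher in IMQ + BZLF against control. Pathway genes then numbered 12 higher and 13 lower, 2 and 8, and 7 and 12. Of all genes, 25.5% were then higher and 24.2% lower, 1.17% and 4.92%, and 19.5% and 24.6%.

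Log2 fold changes that changed sign all belonged to values that passed in no direction. In IMQ + NS against control these were Lss -0.0785, Insig1 -0.0806, Ggps1 -0.041 and Cyp51 -0.011 with equal sums, Lss -0.12, Insig1 -0.00601 and Ggps1 -0.0378 with quantile normalization, and Lss -0.00329 without control replicate 1 (-0.00329 to 0.12 with a sample left out). In IMQ + BZLF against IMQ + NS they were Lbr (-0.0251 to 0.0887), Npc2 (-0.0224 to 0.14), Nr1h3 (-0.0312 to 0.11), Acss2 (-0.0678 to 0.0744) and Soat1 (-0.0888 to 0.0865), as ranges with a sample left out. In IMQ + BZLF against control they were Nsdhl -0.029 and Scap -0.062 with equal sums, Scap -0.035 with quantile normalization, and, as ranges with a sample left out, Nsdhl (-0.0130 to 0.14), Scap (-0.0267 to 0.0730), Fdps (-0.0892 to 0.0516) and Dhcr7 (-0.13 to 0.0559). FPKM without counts gives no counting error, and 4 samples a group limit what small differences can show.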

Other observations

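Among 12649 other genes averaging 1 FPKM or more, those whose level followed the mean of the 8 members most closely over the 12 samples were Casp9, an initiator caspase (Pearson r = 0.932), Cblc, a ubiquitin ligase (0.928), Dhx16, a splicing helicase (0.927), Tmem41a (0.909) and Xab2 (0.907). With each group's mean subtracted they were Evpl, envoplakin of the cornified envelope (0.961), Cldn4, a tight junction claudin (0.932), Mab21l4 (0.930), Cdc42bpg (0.929) and Ovol1, an epithelial transcription factor (0.924). The points share libraries and group differences, and no test was made.

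Other marker lists were counted beside all genes, of which 29.0% passed upward and 27.1% downward in IMQ + NS against control. The shares in IMQ + BZLF against IMQ + NS were 1.28% and 5.17%. T cell markers higher in IMQ + NS against control, at 28.6% of those tested, were near the share of all genes. In IMQ + NS against control, 1 of 8 fibroblast markers passed upward and 5 downward, 0 of 8 skeletal muscle markers upward and 8 downward, 9 of 10 neutrophil markers upward and 1 downward, 1 of 9 macrophage markers upward and 8 downward, 2 of 7 T cell markers tested upward and 0 downward, and 0 of 7 endothelial markers upward and 5 downward. In IMQ + BZLF against IMQ + NS, 8 of 10 neutrophil, 2 of 9 macrophage and 1 of 7 T cell markers passed downward and 0 upward, and no fibroblast, muscle or endothelial marker passed. Neutrophil markers summed to 45.6 to 70.5 FPKM in control, 64.7 to 126 in saline-treated and 18.1 to 29.7 in IMQ + BZLF skin. Ly6g of the neutrophil and Cd8a of the T cell list were each at 0 in at least 1 sample of the series. The part of these marker lists in the values of the 8 genes was not tested.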
